A study of Mus musculus with 6 samples.

Results

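Imprinted growth genes and imprinted noncoding RNAs were examined in the tibialis anterior (TA) muscle of old mice treated with BML-260. The genes were chosen by name: H19, Igf2, Igf2r, Meg3, Rian, Mirg, Dlk1, Peg3, Cdkn1c and Grb10, 10 genes in all. They were looked up by symbol among the 16800 genes of the TPM tables, which give abundance scaled for transcript length and library size, and joined by gene identifier to the raw counts. Of the 10, 9 were listed there, and 8 of those 9 passed the filter on low counts and were tested. Mirg was listed but did not pass the filter, and Dlk1 was not listed, so its counts are given apart.

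All 6 mice were male C57BL/6J mice, 24 months old by the labels (the study's text also gives older ages). The 3 BML-260 mice received 5 mg/kg of BML-260, the small molecule used in the study to inhibit the phosphatase DUSP22, by intraperitoneal injection every day for 1 month. The 3 vehicle mice received DMSO with Tween on the same schedule, and no young or untreated mice were in the comparison. Each library was made from the total RNA of the TA of 1 mouse, so it holds RNA of muscle fibers and of every other cell in the muscle.

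Imprinted genes are transcribed mainly from the copy inherited from the mother or mainly from that inherited from the father. In the H19-Igf2 domain, H19 is a maternally expressed noncoding RNA and Igf2 is a paternally expressed growth factor. In the Dlk1-Meg3 domain, the noncoding RNAs Meg3, Rian and Mirg are read from the maternal copy in the same direction, and Dlk1, a membrane protein that acts on the Notch pathway, is read from the paternal copy. H19, Igf2 and the Meg3 group are abundant in fetal muscle and decline after birth, and several of these genes are expressed in satellite cells, the stem cells of muscle. The parental origin of the reads was not measured here.

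Several of these RNAs contain microRNAs, and the mature sequences below, from RefSeq (GRCm38.p6), show what the host RNAs carry. Of the mature microRNAs placed inside the span of a listed gene, 2 lay in H19, 2 in Igf2, 3 in Meg3, 6 in Rian and 19 in Mirg. Capitals mark the seed, bases 2 to 8, which pairs with target RNAs. The H19 and Igf2 microRNAs are shown as the whole set of that domain. Those of Meg3 and Rian are examples from the tested noncoding RNAs with the highest fold changes. The last 2 are shown because they shared a seed.
miR-675-5p: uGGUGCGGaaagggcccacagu
miR-675-3p: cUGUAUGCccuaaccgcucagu
miR-483-5p: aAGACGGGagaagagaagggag
miR-483-3p: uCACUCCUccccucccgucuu
miR-770-5p: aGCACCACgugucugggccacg
miR-370-3p: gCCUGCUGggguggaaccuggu
miR-453: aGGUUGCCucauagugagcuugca
miR-496a-5p: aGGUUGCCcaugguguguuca
The H19 pair (miR-675-5p at chr7:142577112-142577133, minus strand) and the Igf2 pair (miR-483-5p at chr7:142654968-142654989, minus strand) had 4 different seeds. Within these spans, miR-453 (chr12:109735669-109735692) and miR-496a-5p (chr12:109739132-109739152), both in Mirg on the plus strand, were the only names with the same seed. These libraries do not measure mature microRNAs. The hairpin gene Mir675 was listed at 3 counts in each of the 6 libraries and Mir1906-1, inside Meg3, at 2 counts in each.

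RefSeq promoter windows, from 250 bases before a start site to 50 bases after it, were found for 7 of the 9 genes, and none for H19 or Cdkn1c. The cAMP response element TGACGTCA, a palindrome that reads the same on both strands, was present in the window of the first Meg3 start and in that of Peg3. It was present in 1.79% of the 32851 promoter windows of the table. The stretches around it are shown, with the element in capitals, because they are the only matches among these genes.
Meg3, chr12:109540913-109540972 (GRCm38.p6, plus strand): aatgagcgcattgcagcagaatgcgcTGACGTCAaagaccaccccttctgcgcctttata
Peg3, chr7:6730564-6730623 (GRCm38.p6, minus strand): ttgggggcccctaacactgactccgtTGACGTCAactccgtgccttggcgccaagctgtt
The element began 57 bases before the Meg3 start and 178 bases before the Peg3 start. The first Meg3 window held 13 CpG dinucleotides, the Peg3 window 13, the Mirg window 10 and the Rian window 0, beside a median of 7 over all windows. The second Meg3 window held 1, the Igf2r window 34, the Grb10 windows 9 and 45 and the Igf2 windows 2 to 24. The E-box CANNTG, the core motif of the MYOD family (both strands), was present in at least 1 window of 6 of the 7 genes, all but Peg3. Igf2 had 4 windows, Meg3 2, Grb10 2 and the others 1 each, and the first Meg3 window held no E-box. Of all single windows 72.3% held the motif, a share that cannot be set against a count of genes. A match of letters is a description of the window and not a binding site.

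The libraries held between 39522890 and 56998875 counts. Vehicle replicate 3 stood apart from the other 5 libraries: its summed CPM (counts scaled to the size of the library, with the TMM correction for composition) was 74688 over 9 markers of fast fibers, against 116920 to 142742 in the others. Its sum over 7 macrophage markers was 290, against 106 and 107 in the other vehicle libraries and 63.2 to 76.6 in the BML-260 libraries. Over the 5 listed adipocyte markers it was 84.9, against 7.31 to 10.6 in the others, and over 6 Schwann cell markers 116, against 32.9 to 48.2. Its sums over 8 fibroblast markers (349, others 327 to 483) and 6 endothelial markers (128, others 127 to 154) lay within the range of the others. The fast fiber markers themselves, which define this muscle, were abundant in all 6 libraries. Results are therefore given with and without vehicle replicate 3 where its absence changes them. In bulk muscle, fewer cells of a type and less RNA per cell cannot be told apart.

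H19 was the most abundant of the 9 genes per unit of length, and Mirg the least abundant. Levels between genes were compared in TPM, the authors' values scaled for transcript length. The mean over the 6 libraries was 80.8 TPM for H19 (range 50.6 to 149), 31.7 for Igf2r (26.7 to 39.5), 12.1 for Grb10 (7.77 to 22.9) and 9.31 for Cdkn1c (7.42 to 12.4). It was 7.10 TPM for Peg3 (4.07 to 10.5), 4.26 for Igf2 (2.71 to 7.69), 2.67 for Rian (1.11 to 4.34), 1.53 for Meg3 (0.850 to 2.43) and 0.147 for Mirg (0.00979 to 0.363). H19 was above Igf2r and Igf2r above Grb10 in 6 of 6 libraries with no overlap of their ranges, and the ranges of Meg3 and Mirg did not overlap. Grb10 was above Cdkn1c in 4 of 6 libraries and Igf2 above Rian in 4 of 6, so these neighbours did not differ beyond their spread. Cdkn1c was above Peg3 in 5 of 6 libraries, and Peg3 was above Igf2 and Rian above Meg3 in 6 of 6, although the ranges of each of these pairs overlapped.

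**Figure D1:**
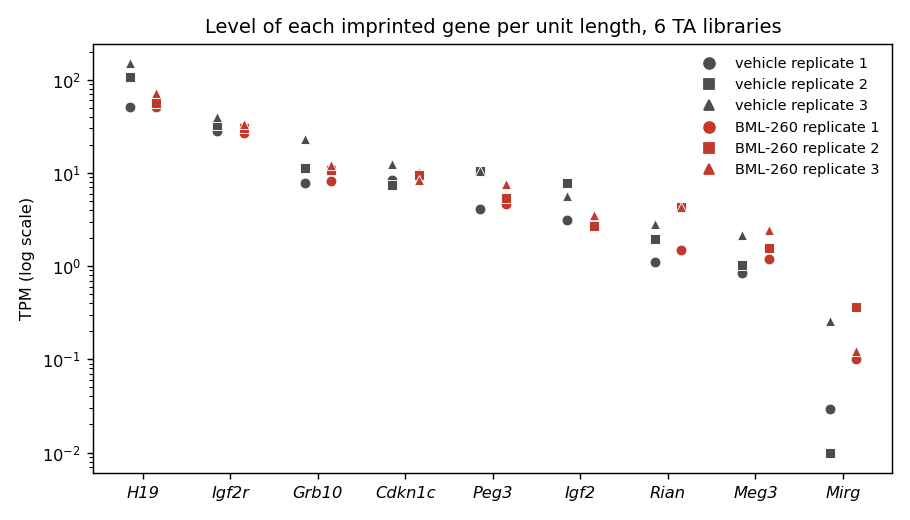
TPM of the 9 listed genes (log axis), ordered by their mean, with 1 point for each library, vehicle in grey and BML-260 in red, and the marker shape giving the replicate. H19 lay between 50.6 and 149 TPM, above all others, and Mirg reached at most 0.363 TPM.

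The question put to these genes was whether their RNA differed between the BML-260 and the vehicle mice. Of the 8 tested genes, Rian was higher with BML-260 and Igf2 lower at the threshold used here, a difference of 1.3-fold or more with p below 0.05 before adjustment. Of all 16188 tested genes, 0.896% passed that threshold in the higher direction and 4.86% in the lower direction, 5.75% in all. At an adjusted p under 0.05, edgeR called 0 of all 16188 genes, of which 966 had an unadjusted p under 0.05, and DESeq2 called 95 genes but none of the 8. The fold changes were positive for 4 of the 8 genes and negative for 4, and their median was -0.10 on the log2 scale, beside -0.0039 for all tested genes. The CPM of the 2 groups overlapped for all 9 listed genes, while 12.1% of all tested genes had no overlap (5.23% higher and 6.91% lower with BML-260).

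**Figure D2:**
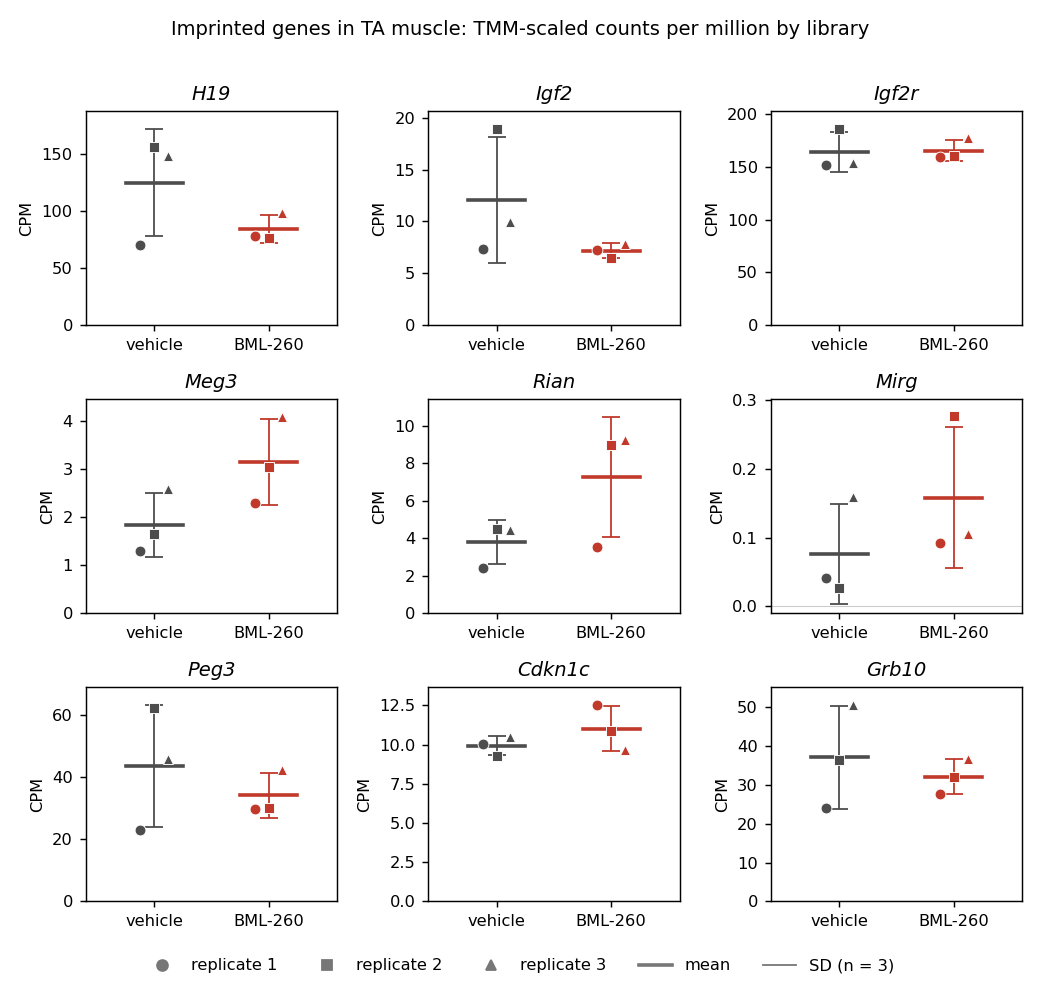
CPM of the 9 listed genes in each library, with a panel for each gene and its own linear axis. Points are libraries, the thick line is the mean and the bars are the SD of 3 libraries, and in every panel the range of the BML-260 points overlaps that of the vehicle points.

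Igf2 encodes insulin-like growth factor II, a growth factor made by differentiating myoblasts (chr7:142650768-142666816). Its level was 7.39, 18.95 and 9.90 CPM in vehicle replicates 1, 2 and 3, and 7.27, 6.46 and 7.84 CPM in BML-260 replicates 1, 2 and 3. Vehicle replicate 2 was the highest, and vehicle replicate 1 lay within the BML-260 range. The mean was 12.1 ± 6.08 CPM (SD, n = 3) in vehicle and 7.19 ± 0.690 CPM (SD, n = 3) with BML-260. On the log2 scale the fold change was -0.75 (SE 0.32, 95% interval -1.48 to -0.014), a level 1.68 times as high in vehicle. The unadjusted p was 0.0465 and the adjusted p 0.788 (edgeR), and the exact permutation test gave p = 0.2, where 0.1 is the smallest that 3 against 3 allows. Without vehicle replicate 2 the log2 fold change was -0.27 with an unadjusted p of 0.227 (edgeR), and the gene no longer passed the threshold. Igf2 also missed the threshold when any of the BML-260 libraries was left out, at log2 fold changes of -0.67 to -0.81, and passed it without vehicle replicate 3 (-0.86). The antisense gene Igf2os overlaps Igf2 and had 0 to 8 counts, against 297 to 689 for Igf2.

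H19 is the noncoding RNA downstream of Igf2 that shares its enhancers and carries miR-675, and it lay at chr7:142575530-142578146. The vehicle libraries had 70.5, 156 and 148 CPM and the BML-260 libraries 77.6, 76.1 and 97.99 CPM. Vehicle replicates 2 and 3 were above all BML-260 libraries and vehicle replicate 1 was below all of them. The mean of H19 was 125 ± 47.2 CPM (SD, n = 3) in vehicle and 83.9 ± 12.2 CPM (SD, n = 3) with BML-260. The log2 fold change was -0.57 (SE 0.29, 95% interval -1.23 to 0.083), with an unadjusted p of 0.0789 and an adjusted p of 0.788 (edgeR). Without vehicle replicate 1, H19 passed the threshold at a log2 fold change of -0.86 (unadjusted p = 0.0015, edgeR). It did not pass in any of the other 13 alternatives, among them the fits without vehicle replicate 2 (-0.38) and without vehicle replicate 3 (-0.42).

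The same vehicle library was also the lowest for Igf2 among the vehicle mice, and the TPM of H19 over that of Igf2 was 16.2, 13.8 and 26.5 in vehicle and 17.6, 20.9 and 20.6 with BML-260. These ratios overlapped between the groups. Nctc1, a noncoding RNA of the same domain next to its muscle enhancers, had 64.2, 62.3 and 64.4 CPM in vehicle and 62.8, 57.2 and 82.0 CPM with BML-260 (log2 fold change 0.08, SE 0.16). H19 over Nctc1 in TPM was 1.011, 2.301 and 2.12 in vehicle and 1.14, 1.23 and 1.10 with BML-260, so vehicle replicate 1 was as low as the BML-260 libraries in this ratio too.

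Igf2r, the receptor that takes IGF-II to the lysosome, had nearly equal means in the 2 groups (chr17:12682406-12769706). The libraries held 152, 186 and 154 CPM in vehicle and 159, 160 and 177 CPM with BML-260. The log2 fold change was 0.012 (SE 0.15, adjusted p = 0.987, edgeR), and its 95% interval of -0.34 to 0.36 lies within a 1.3-fold change in either direction. Its sign turned under 6 of 14 alternatives, with values between -0.13 and 0.11 over all of them. Airn, the antisense noncoding RNA that overlaps Igf2r, had 191 to 466 counts against 6704 to 9642 for Igf2r, and how strand was handled in counting is not given in the sources used here. The TPM of Igf2r over that of Igf2 was 8.95, 4.22 and 7.02 in vehicle and 9.22, 11.2 and 9.54 with BML-260. This was 1 of 5 such ratios, and in the other 4 the groups overlapped. It was singled out after its values were seen and was not tested.

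Rian, the noncoding RNA of the Dlk1-Meg3 domain that hosts small nucleolar RNAs, had the highest fold change of the 8 tested genes (chr12:109603945-109661716). Its level was 2.42, 4.51 and 4.46 CPM in vehicle and 3.56, 9.002 and 9.26 CPM with BML-260. BML-260 replicates 2 and 3 were above all vehicle libraries, and BML-260 replicate 1 was below vehicle replicates 2 and 3. The mean of Rian was 3.80 ± 1.19 CPM (SD, n = 3) in vehicle and 7.27 ± 3.22 CPM (SD, n = 3) with BML-260, from 118 to 422 counts a library. Its log2 fold change was 0.93 (SE 0.39, 95% interval 0.044 to 1.83), a fold of 1.91. The unadjusted p was 0.0418 and the adjusted p 0.788 (edgeR), and the exact permutation test gave p = 0.3. Rian missed the threshold without vehicle replicate 1 or 2 or BML-260 replicate 2 or 3, at log2 fold changes of 0.69, 1.07, 0.76 and 0.73, and passed it without vehicle replicate 3 (1.08). With limma voom weights it was 0.77 and missed the threshold too.

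Meg3, a noncoding RNA that is read first in the same domain (chr12:109540996-109571729), had a fold change of the same sign and missed the threshold. Its level was 1.29, 1.65 and 2.58 CPM in vehicle and 2.298, 3.05 and 4.09 CPM with BML-260. The groups overlapped through vehicle replicate 3, which was above BML-260 replicate 1. Mean levels were 1.84 ± 0.666 CPM (SD, n = 3) and 3.15 ± 0.900 CPM (SD, n = 3), from 60 to 162 counts a library. Its fitted log2 fold change was 0.76 (SE 0.33, 95% interval -0.0041 to 1.53), a fold of 1.70, with an unadjusted p of 0.0510 and an adjusted p of 0.788 (edgeR). Without vehicle replicate 3 it was 1.10 with an unadjusted p of 0.00412 (edgeR), past the threshold. Meg3 also passed with DESeq2 (0.76), without the filter (0.76) and with limma voom weights (0.88), and missed the threshold in 8 of the 14 alternatives. On log2(TPM + 0.1) the change of Meg3 was 0.40 and that of Rian 0.69, neither past the threshold. The TPM of Rian over that of Meg3 was 1.304, 1.91 and 1.34 in vehicle and 1.24, 2.74 and 1.79 with BML-260, which overlapped.

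Mirg, the microRNA host at the far end of these noncoding RNAs (chr12:109734981-109749458), was close to the limit of detection. It had 2, 1 and 10 counts in vehicle and 5, 13 and 4 counts with BML-260. These are 0.0411, 0.0275 and 0.159 CPM and 0.0927, 0.277 and 0.106 CPM, and the groups overlapped. Without the filter its log2 fold change was 0.98 (SE 1.06, unadjusted p = 0.374, edgeR), and a difference was not detectable at this depth. Between Dlk1 and Dio3 the count table held 61 microRNA genes, of which 32 had any count, with 14 to 37 counts a library in all and no more than 9 for a gene in a library. The 19 small nucleolar RNA genes there had 3 to 13 counts a library in all, and 16 of them had a count.

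Dlk1 itself, absent from the TPM tables and so outside the selection, had 0, 2 and 8 counts in vehicle and 12, 8 and 14 counts with BML-260. In CPM these were 0, 0.055 and 0.128 in vehicle and 0.222, 0.171 and 0.369 with BML-260. The value of 0 in vehicle replicate 1 allows up to 3 counts, or 0.0616 CPM, by counting error alone. In CPM the 3 BML-260 libraries were above the 3 vehicle libraries, a separation that 5.23% of all tested genes also had. In counts, vehicle replicate 3 and BML-260 replicate 2 were equal at 8, so the separation came from the scaling to library size. At these counts no fold is given. The other protein-coding genes of the domain were as low, with 0 to 8 counts for Rtl1, a retrotransposon-derived gene, and 0 to 28 for Dio3, the deiodinase that inactivates thyroid hormone.

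Cdkn1c, a maternally expressed inhibitor of cyclin-dependent kinases that acts in cell cycle exit, had close levels in all 6 libraries (chr7:143458339-143461059). It stood at 10.04, 9.30 and 10.5 CPM in vehicle and 12.5, 10.9 and 9.69 CPM with BML-260. BML-260 replicate 1 was the highest, and BML-260 replicate 3 lay within the vehicle range. The log2 fold change was 0.15 (SE 0.15, 95% interval -0.20 to 0.50, adjusted p = 0.818, edgeR), and it was -0.0043 on log2(TPM + 1). Its vehicle libraries had a coefficient of variation of 5.99%, the lowest of the vehicle groups of these genes.

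Grb10, an adaptor protein that dampens insulin and IGF-I receptor signaling, had 24.1, 36.5 and 50.7 CPM in vehicle and 27.7, 31.9 and 36.8 CPM with BML-260 (chr11:11930499-12037428). Both the highest and the lowest library were vehicle libraries. Its log2 fold change was -0.21 (SE 0.26, 95% interval -0.80 to 0.38, adjusted p = 0.841, edgeR), and without vehicle replicate 3, the highest, it was 0.089. Peg3, a paternally expressed zinc finger protein found in muscle stem cells, had 22.9, 62.0 and 45.6 CPM in vehicle and 29.7, 30.0 and 42.3 CPM with BML-260 (chr7:6703892-6730462). As for H19, vehicle replicate 1 was the lowest library and vehicle replicates 2 and 3 the highest. The log2 fold change of Peg3 was -0.35 (SE 0.33, 95% interval -1.11 to 0.40, adjusted p = 0.803, edgeR). Without vehicle replicate 1 it was -0.66 and passed the threshold, and without vehicle replicate 2 it was -0.011.

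**Figure D3:**
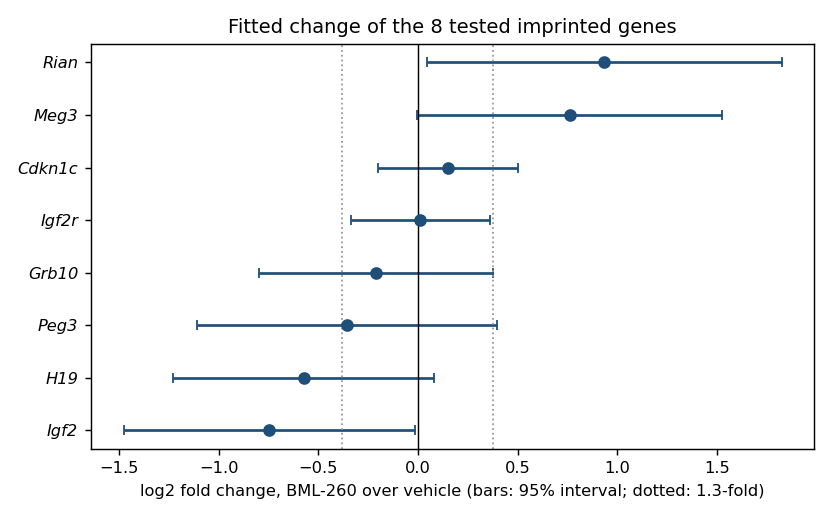
Log2 fold change of the 8 tested genes (points) with the 95% interval of the edgeR fit (bars), where positive values are higher with BML-260 and the dotted lines mark a 1.3-fold change. The intervals of Rian and Igf2 leave out 0, that of Meg3 begins at -0.0041, and that of Igf2r stays within 1.3-fold.

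The spread among the vehicle libraries was wider than among the BML-260 libraries for several of these genes. The coefficient of variation in vehicle and with BML-260 was 50.3% and 9.60% for Igf2, 45.2% and 21.2% for Peg3, 37.8% and 14.5% for H19, and 35.8% and 14.2% for Grb10. It was the other way round for Rian (31.4% and 44.3%) and Cdkn1c (5.99% and 13.05%). No test of the spread was run. Of the 9 listed genes, 6 were lowest in CPM in vehicle replicate 1 and 4 were highest in vehicle replicate 2. Vehicle replicate 3, the library with the most macrophage, adipocyte and Schwann cell RNA, was the highest in CPM for 1 gene and the lowest for none. In TPM, vehicle replicate 3 was the highest library for H19 (149), Igf2r (39.5), Grb10 (22.9), Cdkn1c (12.4) and Peg3 (10.5).

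**Figure D4:**
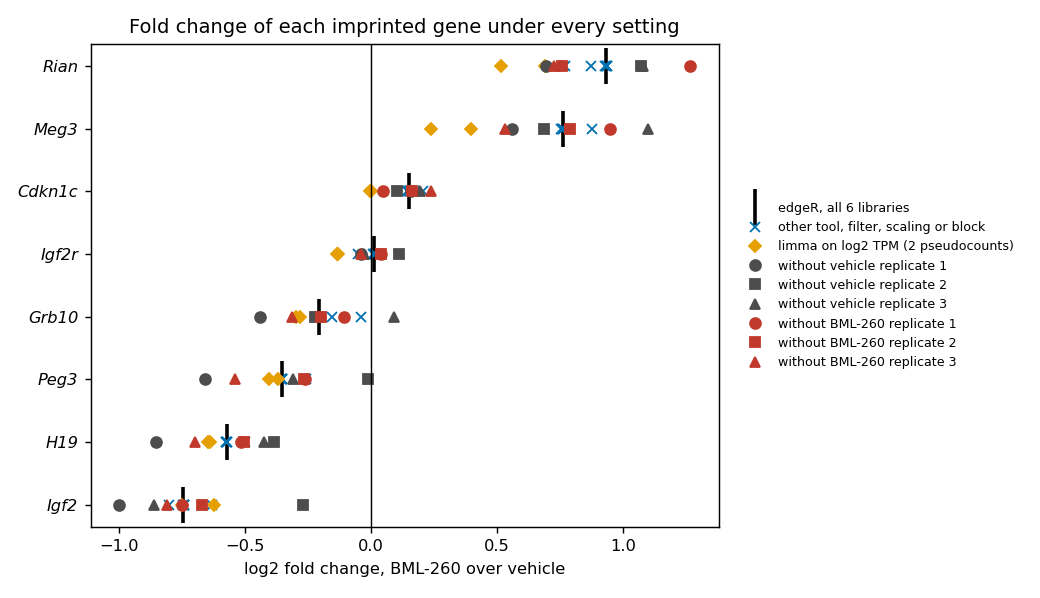
Log2 fold change of the 8 tested genes under each of the 15 settings, with the black bar for edgeR on all 6 libraries and other markers for each library left out, other tools, filters or scaling, and log2 TPM. Igf2 and H19 lay below 0 and Meg3 and Rian above 0 in every setting, while Igf2r, Cdkn1c and Grb10 fell on both sides.

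By leaving out 1 library at a time, the calls moved between genes. Without vehicle replicate 1, H19, Igf2 and Peg3 were called. Without vehicle replicate 3, Igf2, Meg3 and Rian were called, and without BML-260 replicate 1, Meg3 and Rian. Without vehicle replicate 2, BML-260 replicate 2 or BML-260 replicate 3 no gene of the 8 was called. The directions of H19, Igf2, Meg3, Rian and Peg3 were the same in the full set and in all 14 alternatives, and no adjusted p of any of the 8 genes was under 0.24 in any of them.

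Other genes in or next to these domains were not called, where 5.75% of all tested genes passed the threshold in either direction. At that share, lists this short can hold 0 called genes, so the counts are no result about the domains. Of 21 genes in or next to the H19-Igf2 and Kcnq1 domains, 12 were tested and 0 passed the threshold in either direction, with a median log2 fold change of -0.041 beside -0.0039 for all tested genes. Their most abundant genes were the fast troponins Tnnt3 (11345 ± 780 CPM in vehicle and 12066 ± 1138 CPM with BML-260, SD, n = 3) and Tnni2 (6492 ± 940 and 7281 ± 742 CPM). Of 12 neighbours of the Dlk1-Meg3 domain, 8 were tested and 0 passed, with a median of 0.14. Ppp2r5c, a phosphatase subunit, had 68.6 ± 12.4 CPM in vehicle and 78.0 ± 1.68 CPM with BML-260, and the transcription factor Yy1 had 38.8 ± 1.98 and 42.6 ± 3.60 CPM (SD, n = 3 each). Of these 8 neighbours, 7 had a positive fold change, beside a median of -0.0039 for all tested genes, and this was not tested.

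Among 46 other imprinted genes, which include Airn, the antisense RNA that overlaps Igf2r, 36 were tested and 0 passed the threshold. The share over all tested genes was 5.75%. Of the 36, 20 had positive and 16 negative fold changes, and the median was 0.036. The most abundant were Gnas, which encodes a stimulatory G protein subunit (513 ± 55.5 CPM in vehicle and 537 ± 9.10 CPM with BML-260, SD, n = 3), and Dcn, the matrix proteoglycan decorin (431 ± 170 and 376 ± 140 CPM). The groups did not overlap for 4 of the 36, a share close to the 12.1% of all tested genes. The 4 were named after their values were seen: Snrpn, Sgce and Usp29 were higher with BML-260 in all 3 libraries and Mcts2 was lower. The lowest p was that of Snrpn, a splicing protein gene, at a log2 fold change of 0.58 (SE 0.27), with an adjusted p of 0.788 (edgeR). Without vehicle replicate 3, 2 of the 36 passed the threshold, both higher, beside 1.06% of all genes tested in that setting. Of 19 genes that maintain imprints or set DNA methylation, 14 were tested and 0 passed, beside the same 5.75%, with a median of -0.023. Zfp445, a zinc finger protein that protects imprints, had 71.95 ± 17.99 CPM in vehicle and 61.6 ± 6.98 CPM with BML-260, and the DNA methyltransferase gene Dnmt3a had 40.0 ± 13.1 and 53.8 ± 2.60 CPM (SD, n = 3 each).

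**Figure D5:**
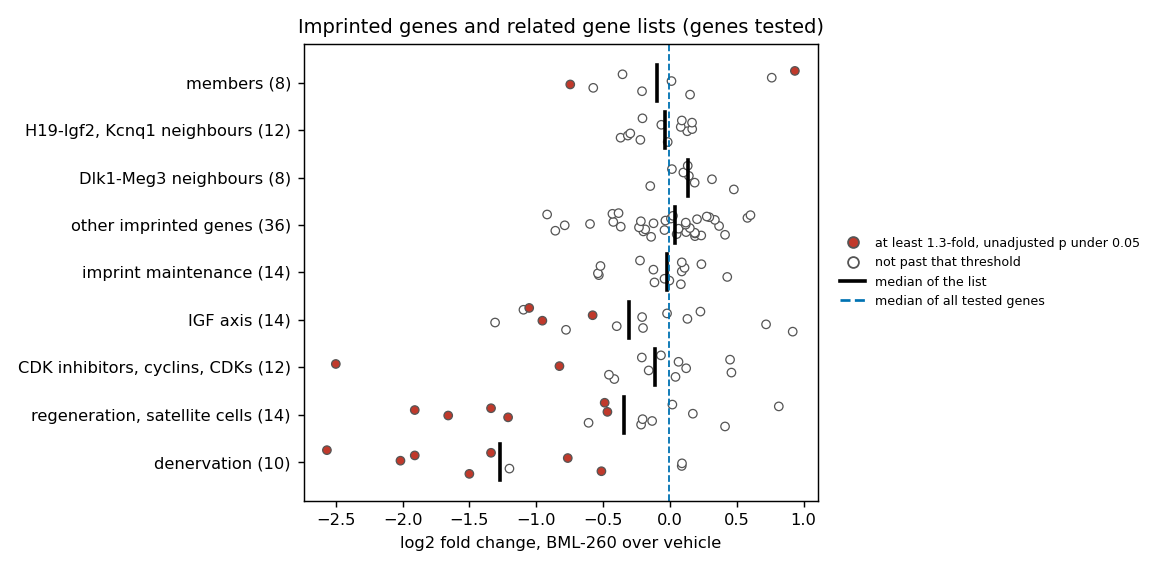
Log2 fold change of each tested gene in the listed groups (points, red where past the threshold), with the median of each list as a black bar and that of all tested genes as a dashed line. The lists of imprinted genes and of genes in or next to their domains have medians between -0.10 and 0.14. The neighbour lists hold genes that are not imprinted. The denervation list has a median of -1.27.

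In the IGF pathway beyond Igf2 and Igf2r, 14 of 18 listed genes were tested, of which 3 were lower at the threshold and 0 higher, beside 4.86% lower and 0.896% higher among all tested genes, and the median was -0.30. The 3 were Igfbp7 (36.1 ± 10.1 CPM in vehicle and 24.2 ± 0.593 CPM with BML-260), Igfbp4 (72.1 ± 43.4 and 37.2 ± 6.34 CPM) and Pappa (2.31 ± 1.08 and 1.12 ± 0.0803 CPM; SD, n = 3 each). Igfbp7 and Igfbp4 encode secreted binding proteins and Pappa a protease that cuts IGF binding proteins. Vehicle replicate 3 was the highest library for all 3 genes, and without it 0 genes of the list were lower, 1 was higher and the median was -0.090. The part of the other cell types in that library in these values was not tested.

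Among the inhibitors, cyclins and kinases around Cdkn1c, 12 of 15 genes were tested, 2 were lower and 0 higher, beside the same 4.86% and 0.896%, and the median was -0.11. Cdkn1a, a cell cycle inhibitor of the same family as Cdkn1c, had 22.1 ± 13.7 CPM in vehicle and 3.93 ± 1.70 CPM with BML-260 (SD, n = 3), a log2 fold change of -2.50 (SE 0.57, adjusted p = 0.598, edgeR). Cdk6, a kinase of the early cell cycle, had 4.39 ± 1.74 and 2.48 ± 0.186 CPM. Both had no overlap of the groups. Without vehicle replicate 3, 1 gene was lower and the median was 0.033.

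Of the genes of muscle regeneration, in which Igf2 and H19 are known to be expressed, and of denervation, more were lower with BML-260 than the 4.86% of all tested genes. Both lists were chosen with earlier results of these data known, so this excess is a description and not independent support. Of the 14 tested genes of regeneration and satellite cells, 6 were lower and 0 higher, with a median of -0.34. The smallest p values belonged to the myogenic factors Myf6 (132 ± 45.1 and 57.1 ± 4.16 CPM) and Myog (15.1 ± 11.4 and 4.05 ± 1.58 CPM), embryonic myosin Myh3 (29.8 ± 15.2 and 9.44 ± 3.71 CPM) and the adhesion molecule Ncam1 (13.9 ± 8.35 and 5.49 ± 1.14 CPM), each given for vehicle and BML-260 as mean and SD (n = 3). Of the 10 tested denervation genes, 7 were lower and 0 higher, with a median of -1.27. Beside Myog, the smallest p values were those of Runx1, Gadd45a and Chrna1, which were at 30.5 ± 15.3, 85.2 ± 38.1 and 24.5 ± 11.3 CPM in vehicle and at 5.14 ± 0.923, 21.1 ± 4.12 and 8.66 ± 0.736 CPM with BML-260 (SD, n = 3 each). These are a transcription factor, a stress response gene and an acetylcholine receptor subunit. Myog and Ncam1 stand in both lists. Of the 14 tested regeneration and satellite cell genes, 8 were not called. These were, by log2 fold change, Pax3 (0.81), Calcr (0.41), Myh8 (0.17), Pax7 (0.018), Megf10 (-0.13), Myf5 (-0.20), Cdh15 (-0.22) and Chrdl2 (-0.61). Without vehicle replicate 3, 6 regeneration and 8 denervation genes were lower, and of the macrophage markers 5 of 7 were lower, against 6 of 7 with that library. Of all genes tested in that setting, 2.92% were lower.

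The genes whose pattern over the 6 libraries was most like that of 4 of the imprinted genes were sought among the tested genes listed in the TPM tables. The measure was the root mean square difference of log2 CPM centred on each gene's mean. For H19 these were F630048H11Rik (0.108), Dchs1 (0.113) and the nuclear noncoding RNA Malat1 (0.116), beside a spread of 0.461 for H19 itself. For Igf2 they were Ccdc141 (0.0816), Mdm4 (0.0881) and Palm2 (0.129), beside 0.517. For Meg3 they were Col9a1 (0.161), Gm4017 (0.188) and Sdk1 (0.210), beside 0.538, and for Cdkn1c Ino80c (0.0415), Vamp7-ps (0.0464) and Eno1b (0.0506), beside 0.139. The likeness is a description over 6 libraries that share the 2 groups.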

How the data were processed

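RNA-Seq was carried out on the TA muscle of 3 vehicle and 3 BML-260 mice. The submitters' processing notes name StringTie 2.1.3b, Bowtie2 2.3.4.1, HISAT2 2.1.0, Trimmomatic 0.38 and the build mm10. The authors deposited raw counts per gene for all 6 libraries (45777 genes, not normalized). The authors also deposited TPM, scaled for length and library total, for 16800 genes of each library. How strand and multi-mapped reads were handled is not given in the sources used here. Names and coordinates came from RefSeq for GRCm38.p6, the same assembly as mm10, in which 45679 identifiers were found.

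Counts were tested with edgeR 4.0.16 in R 4.3.3 (filterByExpr, TMM, quasi-likelihood test, Benjamini-Hochberg adjustment over 16188 genes, which held 99.9% of counts). Library totals ran from 39522890 to 56998875, and intervals and limits cover counting and replicate error only. Genes were called at a difference of 1.3-fold or more with p below 0.05 before adjustment, and separately at an adjusted p under 0.05. Alternatives were a fit with the replicate number as a block, each library left out, RLE scaling, no filter, a filter of 10 counts or more per library, DESeq2 1.42.0, limma 3.58.1 voom with sample quality weights, and limma on log2(TPM + 1) and log2(TPM + 0.1). No pair of libraries had identical counts over all genes.

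The genes and lists were chosen with earlier results of these data known. Named are the 10 genes, from each list up to 4 called genes with the smallest p or else the 2 with the highest mean count, and for 4 genes the 3 most alike. Any further gene was picked for its values, except the regeneration genes not called, which are all given. An item of the denervation list is not reported here, and its counts were made without it. The plots were made in matplotlib 3.10.9.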

Additional observations from a re-analysis of the deposited data

How the results depend on the processing

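The number of genes past the fold and p threshold was 931, and 1416 without the filter, 503 on log2(TPM + 1), and 503 to 2223 when 1 library was left out (2223 without vehicle replicate 1, 503 without BML-260 replicate 2). Of the 8 imprinted genes, 2 passed, and 0 on log2(TPM + 1) and on log2(TPM + 0.1), and 0 to 3 when 1 library was left out. Genes with an adjusted p under 0.05 numbered 0 with edgeR, 1 without the filter, 1 with at least 10 counts in every library, 1 with limma voom weights, 95 with DESeq2, and 0 to 9 when 1 library was left out. Igf2 and Rian each passed in 7 of 14 alternatives, Meg3 in 6, H19 and Peg3 in 1 each. The sign of Igf2r turned with voom weights (-0.052), on log2(TPM + 1) (-0.13) and log2(TPM + 0.1) (-0.13), and without vehicle replicate 1 (-0.039), vehicle replicate 3 (-0.028) or BML-260 replicate 3 (-0.039), and its range when 1 library was left out was -0.039 to 0.11. That of Cdkn1c turned on log2(TPM + 1) (-0.0043) and log2(TPM + 0.1) (-0.0020), and that of Grb10 without vehicle replicate 3 (0.089), with a range of -0.44 to 0.089 when 1 library was left out. The cause was not tested. The TPM scale moved the median of all genes to -0.10 and -0.14 with pseudocounts of 1 and 0.1, and relative to it the change of Cdkn1c was 0.094 and 0.14 and that of Igf2r -0.033 and 0.0040.

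The labels do not say whether the replicate numbers pair the mice. Same-numbered libraries correlated weakly, at 0.162, 0.0541 and 0.110, after the group means were removed. Libraries with different numbers correlated at -0.124 to -0.0206, so each library correlated best with its own number. Deviations from a group mean cancel within the group, so the negative values are not separate evidence of pairing. With the replicate block 1057 genes passed, and Meg3 and Rian but not Igf2 (log2 fold change -0.63) among the imprinted genes.

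Mirg did not pass the filter, and no test of Dlk1 or of the microRNA genes is given. The comparison is 3 mice against 3, in 1 muscle of old males, without allelic information.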
